A study of Mus musculus with 22 samples.

Results

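Livers of mice that lack the glucagon gene (Gcg-/-) were compared at a high and a low dose of infused glucagon, 150 µg/d against 30 µg/d. The comparison uses 8 of the 22 liver libraries of the series, chosen by their labelled genotype and treatment: libraries 19, 20, 21 and 22 received 150 µg/d, and libraries 11, 12, 13 and 14 received 30 µg/d. Both groups carry the same Gcg deletion and both were infused, so neither is an untreated control, and the labelled difference between them is that of the dose. The other 14 libraries are Gcg-/- liver without infusion (3 libraries), wild-type (WT) liver at 150 µg/d (4) and 30 µg/d (4), and WT liver without infusion (3). The labels give no sex, age, strain, infusion route or duration, and do not say that each library came from a separate mouse, and p-values below therefore cover the spread between libraries, part of which may be technical.

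Glucagon is a peptide hormone of pancreatic alpha cells. It binds the receptor Gcgr on hepatocytes, which raises cyclic AMP and activates protein kinase A and the transcription factor CREB. In liver it is known for switching on gluconeogenesis and amino acid breakdown with urea synthesis, and for opposing insulin. Many of its target enzymes are arranged along the liver lobule, from the periportal hepatocytes that receive portal blood to the pericentral ones at the central vein.

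Expression is given as reads scaled to gene length and library size (RPKM), the values the authors deposited, and differences as log2 fold changes of RPKM + 1, which understate the change of low genes. Depth estimated from the values was 11.2 to 17 M reads in the 8 libraries. Gcg was listed at 0 in all 22 libraries, so it checks no label in liver, and Gcgr averaged 79.2 ± 8.79 RPKM at 150 µg/d and 79.8 ± 7.55 RPKM at 30 µg/d (SD, n = 4 each). All 12 hepatocyte markers were above 0 in each library, and pancreas and adipose markers summed to 6.96 to 12.1 RPKM at 150 µg/d and 4.41 to 19.9 RPKM at 30 µg/d. Library 13 stood apart in the 30 µg/d group: its mean log2 level of male-biased liver genes was 5.37, against 8.09 to 8.66 in libraries 11, 12 and 14, and Cyp2b9, a female-biased cytochrome P450, was 42.9 RPKM there and listed at 0 in the other 3. The median log2 change of the 4 tested sex chromosome genes between the doses was -0.20, and -0.17 without library 13. The sex of the animals was not tested. At 150 µg/d, library 20 was low in acute phase genes and library 19 was low in amino acid genes, and both are named beside the results they touch.

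The high dose moved a small set of genes. Of 11590 genes tested, 63 (0.544%) passed an adjusted p of 0.05 (limma, Benjamini-Hochberg), 35 higher (0.302%) and 28 lower (0.242%) at 150 µg/d. The median size of their change was 0.70 on the log2 scale, and 17 of them changed by at least 1, 11 upward and 6 downward. The highest and lowest libraries of the 2 groups did not overlap for 59 of the 63, against 308 (2.66%) and 421 (3.63%) of all tested genes that were higher or lower without overlap. The 63 were chosen on the same comparison, so their lack of overlap is no separate test. With every library scaled to one sum of RPKM, 79 genes passed and 72.2% of them were higher, against 55.6% of the 63, and the median of all genes moved by less than 0.1 (log2), to 0.02 against -0.02.

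That count rests on few libraries. It was 0 when only these 8 libraries entered the fit, where the spread was estimated from them alone and not from all 6 groups. What moved the count was not tested. Leaving out library 11, 12, 14, 21 or 22 left 16, 13, 11, 11 and 10 genes in that order, whereas 282 genes passed without library 19 and 122 without library 13. The sign of all 63 was the same under each setting tried. For 59 of the 63 the groups did not overlap, so leaving out a library could not turn the sign. For these genes the unchanged sign in such fits is no test of stability. Of the 63, 9 passed whichever of the 8 libraries was left out: Flot1, Grn, Stat3, Tnfrsf1a, Ebp, Mmd2 and H2-Q10, higher at 150 µg/d, and Akr1c14 and Sdpr, lower.

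**Figure D1:**
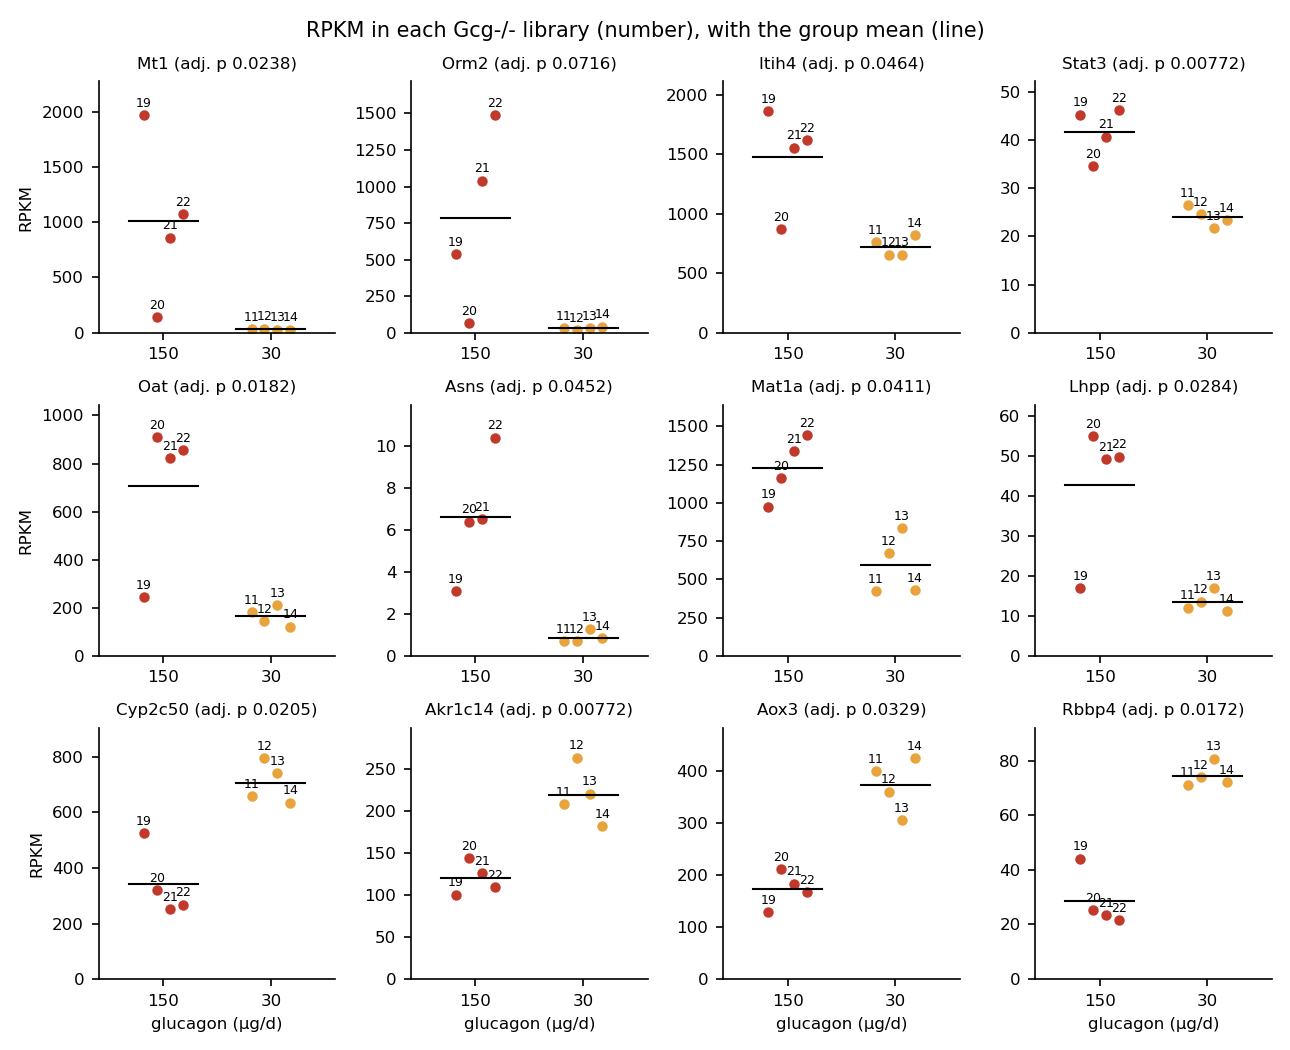
RPKM of 12 genes in each Gcg-/- library (points, numbered by library), with 150 µg/d on the left, 30 µg/d on the right and the group mean as a line; panel titles give the limma adjusted p. Library 20 is the lowest 150 µg/d library for Mt1, Orm2, Itih4 and Stat3, and library 19 is the lowest for Oat, Asns, Mat1a and Lhpp.

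Among genes of amino acid breakdown, Oat and Mat1a were called higher at 150 µg/d. Oat, the mitochondrial ornithine aminotransferase (chr7:132557475-132576398, GRCm38.p6, RefSeq), had 245, 910.4, 822 and 855 RPKM in libraries 19 to 22 at 150 µg/d, against 182, 143, 209.9 and 121 RPKM in libraries 11 to 14 at 30 µg/d. Library 19 lay just above the 30 µg/d libraries and the other three far above them. Oat averaged 4.31 times as much at the high dose, a log2 change of 1.96 ± 0.37 (SE; limma adjusted p = 0.0182), or 2.42 without library 19. Mat1a, which makes S-adenosylmethionine in liver, had 975, 1162, 1338 and 1441 RPKM at 150 µg/d, against 424, 673, 836 and 431 RPKM at 30 µg/d. Its groups did not overlap, and it rose by 1.1 ± 0.24 (limma adjusted p = 0.0411). Both calls were lost when any of several single libraries was left out: Oat passed in 3 of the 8 such fits and Mat1a in 2.

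These were the 2 calls among 58 tested genes of amino acid catabolism, a list whose median log2 change was 0.12, against -0.02 for all tested genes. At an unadjusted p under 0.05, 13 of the 58 were higher and 2 were lower, against 6.06% and 6.82% of all tested genes. Gls2, the liver glutaminase that releases ammonia for urea synthesis, had 70.0 RPKM in library 19 and 207 to 213 RPKM in libraries 20 to 22 at 150 µg/d, against 41.1 to 137 RPKM at 30 µg/d (limma adjusted p = 0.124). Sds, the serine dehydratase, showed the same outlying library, with 52.9 RPKM in library 19 and 235 to 269 RPKM in the others, against 28.4 to 157 RPKM at 30 µg/d (limma adjusted p = 0.333). Without library 19, 11 genes of the list passed, none of them lower, and none passed without library 11, 12, 14, 21 or 22. The mean log2 level of the list was 6.52 in library 19 and 6.95 to 7.08 in libraries 20 to 22, against 6.45 to 6.79 at 30 µg/d.

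None of the 8 urea cycle genes passed, although 7 of them had a positive change, against 45.2% of all tested genes, and the median was 0.36. Arg1, the arginase that forms urea, had 588, 1001, 1171 and 1105 RPKM at 150 µg/d, against 536, 616, 642 and 535 RPKM at 30 µg/d, with library 19 inside the 30 µg/d range (limma adjusted p = 0.105). Otc, which makes citrulline, was the exception in direction, with 222, 291, 219 and 252 RPKM at 150 µg/d, against 305, 304, 360.3 and 299.99 RPKM at 30 µg/d (limma adjusted p = 0.22). Without library 19, 2 urea cycle genes passed, and none without any other single library of the 8.

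Of 21 amino acid transporters, 1 passed, and it was lower. Slc43a2, a carrier of large neutral amino acids, had 2.29, 1.78, 2.04 and 2.27 RPKM at 150 µg/d, against 2.85, 3.64, 2.96 and 3.30 RPKM at 30 µg/d (log2 change -0.43 ± 0.09, limma adjusted p = 0.0284; passed in 2 of the 8 fits that left out 1 library). Slc3a1, the heavy chain of the cystine and dibasic amino acid carrier, had 34.4, 21.8, 44.8 and 62.6 RPKM at 150 µg/d, against 11.6, 6.58, 11 and 15 RPKM at 30 µg/d. Its groups did not overlap, but its change of 1.75 ± 0.40 did not pass (limma adjusted p = 0.0534). Slc38a3, the glutamine carrier of hepatocytes, differed by 0.63 ± 0.17 and overlapped between groups (limma adjusted p = 0.102).

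Asns, which makes asparagine and is a target of the amino acid stress factor ATF4, rose, though it was low in both groups. It had 3.09, 6.41, 6.52 and 10.4 RPKM at 150 µg/d, against 0.691, 0.704, 1.27 and 0.831 RPKM at 30 µg/d, without overlap and with a log2 change of 1.94 ± 0.43 (limma adjusted p = 0.0452). Nupr1, a small stress-induced chromatin protein, had 1.04, 1.44, 1.51 and 1.97 RPKM at 150 µg/d, against 0.567, 0.510, 0.806 and 0.244 RPKM at 30 µg/d (0.70 ± 0.13, limma adjusted p = 0.0182). Asns and Nupr1 were the 2 calls among 14 tested ATF4 targets, against 0.302% of all tested genes called higher. The median change of the 14 was 0.02, and Asns passed in 2 and Nupr1 in 3 of the 8 fits that left out 1 library. Atf5, another transcription factor of that response, and Cth, the cystathionine lyase, overlapped between groups (limma adjusted p = 0.217 and 0.22).

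The promoters of Asns and Nupr1 are shown because both hold the core TGATGNAA, which includes the sequence that ATF4 with a partner protein is known to bind in Asns. Each line gives the 250 bases before the RefSeq start on the gene's strand in GRCm38.p6, with the core in capitals on either strand: chr6:7693210-7693459 (- strand) and chr7:126625471-126625720 (- strand).
Asns: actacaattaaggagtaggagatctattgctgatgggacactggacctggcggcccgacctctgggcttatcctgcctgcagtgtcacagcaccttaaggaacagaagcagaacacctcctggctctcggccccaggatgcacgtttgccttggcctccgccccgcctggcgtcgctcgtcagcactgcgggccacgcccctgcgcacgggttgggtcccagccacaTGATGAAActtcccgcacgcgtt
Nupr1: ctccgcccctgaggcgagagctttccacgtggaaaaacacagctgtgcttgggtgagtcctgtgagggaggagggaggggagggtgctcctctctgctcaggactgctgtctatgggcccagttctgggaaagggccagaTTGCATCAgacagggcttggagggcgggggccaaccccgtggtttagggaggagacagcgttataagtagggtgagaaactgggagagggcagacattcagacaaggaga
The core was sought after the values were seen. It stood in 3 of the 28 promoters found for the 35 higher genes (Asns, Nupr1 and Ctsl) and in none of the 21 found for the 28 lower genes, against 1.95% of the 9236 promoters of tested genes. TGACG, the core of the cyclic AMP response element, stood on either strand in 17.9% of the higher and 9.52% of the lower genes, against 27.3% of the tested genes. Its palindrome TGACGTCA was in none of the promoters of either set and in 2.66% of those of tested genes. A match is a run of letters in this window and says nothing about binding.

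A Krebs cycle enzyme and a phosphatase were also called higher. Fh1, the fumarase of the Krebs cycle, had 100.02, 222, 228 and 251 RPKM at 150 µg/d, against 74.3, 72.3, 112 and 66.7 RPKM at 30 µg/d, with library 19 inside the 30 µg/d range (1.24 ± 0.26, limma adjusted p = 0.0335). Lhpp, a histidine and lysine phosphatase, had 17 RPKM in library 19 and 49.2 to 55.0 RPKM in libraries 20 to 22 at 150 µg/d, against 12.1, 13.6, 17 and 11.1 RPKM at 30 µg/d (1.49 ± 0.30, limma adjusted p = 0.0284). Both passed in 2 of the 8 fits that left out 1 library, those without library 13 or 19.

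In nicotinamide and one-carbon metabolism, 1 of 20 tested genes passed. Aox3, a hepatic aldehyde oxidase that also oxidizes methylated nicotinamide, had 128, 211, 184 and 167 RPKM at 150 µg/d, against 399, 360.4, 306 and 424 RPKM at 30 µg/d. All 4 high-dose libraries were below all 4 low-dose ones, a log2 change of -1.12 ± 0.23 (limma adjusted p = 0.0329; passed in 3 of the 8 fits that left out 1 library). Nnmt, which methylates nicotinamide, had 141, 288, 315 and 355 RPKM at 150 µg/d, against 54.4, 49.0, 77.0 and 61.7 RPKM at 30 µg/d, also without overlap. Its change of 2.10 ± 0.51 did not pass (limma adjusted p = 0.065).

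Acute phase genes formed the list with the highest median, 0.72 over 31 tested genes. Of these, 2 were called higher, against 0.302% of all tested genes. At an unadjusted p under 0.05, 19 were higher and none lower, against 6.06% and 6.82% of all tested genes. Mt1, a metallothionein that binds zinc and copper (chr8:94178883-94180327), had 1969.5, 139.8, 859 and 1071 RPKM at 150 µg/d, against 33.1, 36.5, 27.8 and 26.6 RPKM at 30 µg/d. The lowest high-dose library was above the highest low-dose one, and the change of 4.49 ± 0.88 was the largest among the called genes (limma adjusted p = 0.0238). Mt1 also varied widely within other groups, with 429, 52.6 and 10.7 RPKM in uninfused Gcg-/- libraries 4, 5 and 6. Library 4 thus lay above high-dose library 20, and Mt1 did not pass between 150 µg/d and no infusion (limma adjusted p = 0.057). WT livers at 30 µg/d had 84.4 to 713 RPKM. Itih4, a secreted inter-alpha-inhibitor heavy chain, had 1858, 870.2, 1554 and 1619 RPKM at 150 µg/d, against 759, 654, 655 and 820.1 RPKM at 30 µg/d (0.98 ± 0.22, limma adjusted p = 0.0464). Itih4 passed only without library 20 among the 8 fits that left out 1 library, and Mt1 passed without library 13, 19 or 20.

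Library 20 did not share the level of the other 3 high-dose libraries. The mean log2 level of the acute phase list was 8.78, 6.92, 8.28 and 8.58 in libraries 19 to 22 at 150 µg/d, against 6.68 to 7.12 at 30 µg/d, so that library 20 lay inside the 30 µg/d range. Mt2, the neighbouring metallothionein, had 1738, 17.3, 611 and 718 RPKM at 150 µg/d, against 9.88 to 21.8 RPKM at 30 µg/d (4.69 ± 1.14, limma adjusted p = 0.0671). Orm2, a plasma acid glycoprotein, had 538, 65.3, 1040.1 and 1489 RPKM at 150 µg/d, against 17.2 to 40.1 RPKM at 30 µg/d (limma adjusted p = 0.0716). Saa1, serum amyloid A, had 8245, 169, 3784 and 5234 RPKM at 150 µg/d, against 756, 86.0, 40.8 and 336 RPKM at 30 µg/d, and did not pass (limma adjusted p = 0.239). Without library 20, 6 genes of the list passed and its median was 1.03, and none passed without library 11, 12, 14, 21 or 22. Mt1 and Mt2, like the Saa and Orm genes, are near copies, and how shared reads were divided is not given in the sources used here.

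Of 7 further called genes, Litaf and Grn came from the naming rule, and Stat3, Tnfrsf1a, Mpeg1, Ctsl and Nfkb2 were picked after their values were seen. Stat3, the transcription factor downstream of interleukin-6, had 45.4, 34.6, 40.8 and 46.3 RPKM at 150 µg/d, against 26.5, 24.6, 21.8 and 23.5 RPKM at 30 µg/d (0.76 ± 0.12, limma adjusted p = 0.00772). Tnfrsf1a, a receptor for tumour necrosis factor, had 40.9, 39.0, 45.1 and 42.7 RPKM at 150 µg/d, against 20.7, 24.4, 30.0 and 25.9 RPKM at 30 µg/d (0.72 ± 0.12, limma adjusted p = 0.00772). For both genes library 20 was the lowest of the 150 µg/d group and still above every 30 µg/d library. Grn, the lysosomal growth factor progranulin, had 81.8, 67.8, 97.1 and 100.03 RPKM at 150 µg/d, against 44.1, 45.0, 43.3 and 46.8 RPKM at 30 µg/d (0.92 ± 0.12, limma adjusted p = 0.00125). Litaf, a late endosomal protein, rose by 1.02 ± 0.19, Mpeg1, the macrophage perforin, by 0.78 ± 0.14, and Ctsl, the protease cathepsin L, by 0.56 ± 0.11 (limma adjusted p = 0.0182, 0.0182 and 0.0284). Nfkb2, an NF-kappaB subunit, rose by 0.49 ± 0.11 (limma adjusted p = 0.0411). Of the 8 fits that left out 1 library, Nfkb2 passed in 2, Ctsl in 3, and Litaf and Mpeg1 in 4.

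None of 16 tested Kupffer and macrophage markers passed beside these calls, and their median change was -0.09. Their summed level was 248 to 430 RPKM at 150 µg/d, lowest in library 20 and highest in library 22, against 314 to 378 RPKM at 30 µg/d, and no marker was at 0. Csf1r, the receptor that macrophages depend on, had 17.8, 12.6, 18.4 and 18.7 RPKM at 150 µg/d, against 23.1, 22, 19 and 24.4 RPKM at 30 µg/d (limma adjusted p = 0.38). Cd5l, a secreted Kupffer cell protein, differed by 0.36 ± 0.19 with overlapping groups (limma adjusted p = 0.467). H2-Q10, a class I molecule secreted by liver that was named after its values were seen, had 1009, 1199, 1113 and 995 RPKM at 150 µg/d, against 731, 753, 831 and 729 RPKM at 30 µg/d (0.50 ± 0.08, limma adjusted p = 0.00772). It belongs to a family of similar genes, so its reads may be shared.

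**Figure D2:**
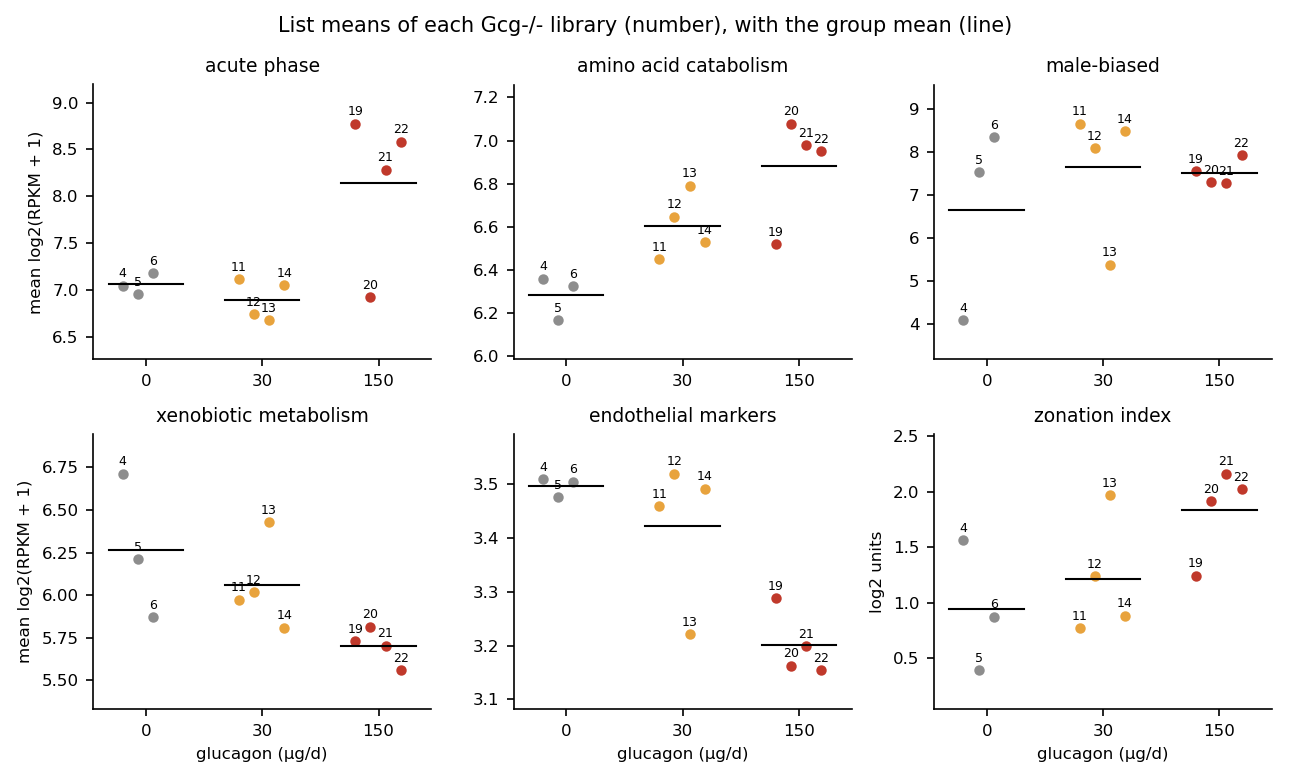
Mean log2(RPKM + 1) of 5 gene lists, and the periportal minus pericentral index, in each Gcg-/- library (points, numbered by library) at 0, 30 and 150 µg/d, with group means as lines. Library 20 lies at 6.92 in the acute phase panel where the other 150 µg/d libraries lie at 8.28 to 8.78, and library 13 lies at 5.37 in the male-biased panel.

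Of 60 tested genes of xenobiotic metabolism, 2 were called lower and 1 higher, against 0.242% and 0.302% of all tested genes. At an unadjusted p under 0.05, 22 were lower and 3 higher, against 6.82% and 6.06% of all tested genes. The median change was -0.36. Cyp2c50, a cytochrome P450 that oxidizes fatty acids and drugs, had 526, 319.7, 252 and 268 RPKM at 150 µg/d, against 659, 795, 741 and 635 RPKM at 30 µg/d. The groups did not overlap, with library 19 nearest to the 30 µg/d livers, and it fell by 1.11 ± 0.21 on the log2 scale (limma adjusted p = 0.0205). Cyp2d10, another P450, had 319, 329, 325 and 309 RPKM at 150 µg/d, against 427, 411, 378 and 412 RPKM at 30 µg/d (-0.34 ± 0.07, limma adjusted p = 0.0231). Its neighbours in the list, Cyp2c54 and Cyp2c37, were lower without overlap but did not pass (limma adjusted p = 0.054 and 0.0803). The Cyp2c genes are near copies of each other. Without library 19, 7 genes of the list were called lower, and 2 without library 20 or library 13, which had the highest list mean of the 8 (6.43). None was called lower without library 11, 12, 14, 21 or 22, so Cyp2c50 and Cyp2d10 each passed in 3 of the 8 fits.

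Gstm2, a glutathione transferase, was the call in the other direction, with 54.3, 61.4, 45.2 and 31.8 RPKM at 150 µg/d, against 27.0, 24.2, 27.0 and 21.4 RPKM at 30 µg/d (0.89 ± 0.19, limma adjusted p = 0.0411). Akr1c14, the hydroxysteroid dehydrogenase that reduces dihydrotestosterone, had 101, 144, 126 and 109 RPKM at 150 µg/d, against 208, 263, 220.5 and 182 RPKM at 30 µg/d, without overlap. It fell by 0.86 ± 0.13 (limma adjusted p = 0.00772). Akr1c20, a related reductase, fell by 0.63 ± 0.14, and Hsd3b3, a steroid dehydrogenase named after its values were seen, by 0.56 ± 0.12 (limma adjusted p = 0.0458 and 0.0452). Ces2b, a carboxylesterase, was near 0 at the high dose, with 0.103, 0.238, 0 and 0.488 RPKM at 150 µg/d, against 9.21, 4.72, 1.96 and 6.54 RPKM at 30 µg/d (-2.33 ± 0.43, limma adjusted p = 0.0182). Cyp17a1, a steroid hydroxylase, had 1.6, 11.3, 13.7 and 31.3 RPKM at 150 µg/d, against 1.16, 0.650, 5.13 and 1.08 RPKM at 30 µg/d, where library 13 was the highest, and did not pass (limma adjusted p = 0.0842). Akr1c14 passed in all 8 fits that left out 1 library, Gstm2 and Ces2b in 3, Akr1c20 in 3 and Hsd3b3 in 2.

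None of 30 bile acid genes passed, and 7 were lower at an unadjusted p under 0.05, against 6.82% of all tested genes. Abcb11, the bile salt export pump, had 85.3, 95.3, 84.5 and 97.8 RPKM at 150 µg/d, against 127, 110.4, 134 and 149 RPKM at 30 µg/d, without overlap (limma adjusted p = 0.0855). Cyp27a1, the sterol hydroxylase of the acidic bile acid pathway, differed by -0.60 ± 0.17, and library 13 lay within the 150 µg/d range (limma adjusted p = 0.123).

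In cholesterol synthesis, 23 of 24 tested genes had a positive change, against 45.2% of all tested genes. The median was 0.42, and 1 gene passed, against 0.544% of all tested genes. Ebp, the sterol isomerase late in the pathway (chrX:8185329-8193512), had 148, 183, 137 and 117 RPKM at 150 µg/d, against 92.4, 99.5, 88.2 and 83.7 RPKM at 30 µg/d, without overlap (0.67 ± 0.11, limma adjusted p = 0.00772). Pmvk, the phosphomevalonate kinase, was higher without overlap and did not pass (limma adjusted p = 0.191). The mean log2 level of the list varied within each dose, from 5.36 to 6.04 at 150 µg/d, against 4.998 to 5.68 at 30 µg/d, and its median was 0.27 without library 13, the lowest of the 8.

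None of 20 gluconeogenesis genes and none of 23 genes of glycolysis and glycogen passed. Fbp1, the fructose bisphosphatase, had 531, 985, 927 and 820.2 RPKM at 150 µg/d, against 404, 370.4, 648 and 345 RPKM at 30 µg/d (0.89 ± 0.21, limma adjusted p = 0.0575). Pck1, the carboxykinase, had 1319, 1542, 2145 and 1344 RPKM at 150 µg/d, against 794, 1685, 880.1 and 885 RPKM at 30 µg/d, where library 12 was as high as the high-dose livers (limma adjusted p = 0.415). G6pc, the glucose phosphatase, ran from 63.8 to 190.4 RPKM at 150 µg/d, against 58.6 to 279 RPKM at 30 µg/d (limma adjusted p = 0.792). Pygl, the liver glycogen phosphorylase, and Mlxipl, the carbohydrate response factor, were lower without passing (limma adjusted p = 0.147 and 0.065).

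Of 19 apolipoprotein and lipoprotein genes, 5 had a positive change, against 45.2% of all tested genes, and none passed. Scarb1, the HDL receptor, was the nearest, with 65.0, 41.0, 45.4 and 44.0 RPKM at 150 µg/d, against 63.3, 67.6, 83.4 and 75.4 RPKM at 30 µg/d (-0.57 ± 0.13, limma adjusted p = 0.0528). Without library 19, 3 genes of this list were called lower, and none without any other single library of the 8. Scd1, the fatty acid desaturase, had 1618, 2561, 1323 and 508 RPKM at 150 µg/d, against 172, 499, 1224 and 330.5 RPKM at 30 µg/d, with overlap (limma adjusted p = 0.234).

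Zonation landmarks were tested one by one. None of 24 periportal genes passed, with a median of 0.35, and of 32 pericentral genes 1 was higher and 1 lower, with a median of -0.27. The pair was Oat and Cyp2c50, 2 pericentral genes that moved in opposite directions. Glul, the glutamine synthetase of the innermost pericentral cells, had 539.5, 396, 351 and 342 RPKM at 150 µg/d, against 601, 531, 249.8 and 571 RPKM at 30 µg/d, and library 13 was the lowest of all 8 (limma adjusted p = 0.757). Cyp2e1, a pericentral P450, and Axin2, a target of Wnt signalling, overlapped between groups (limma adjusted p = 0.195 and 0.805). Cyp2f2, a periportal P450, was lower without overlap, at 531 to 711 RPKM against 722 to 883 RPKM at 30 µg/d, and did not pass (limma adjusted p = 0.288). The mean log2 level of periportal minus pericentral genes was 1.84 ± 0.41 at 150 µg/d and 1.22 ± 0.54 at 30 µg/d (SD, n = 4 each). Library 19 had 1.25 and library 13 had 1.97, each close to the mean of the other dose.

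**Figure D3:**
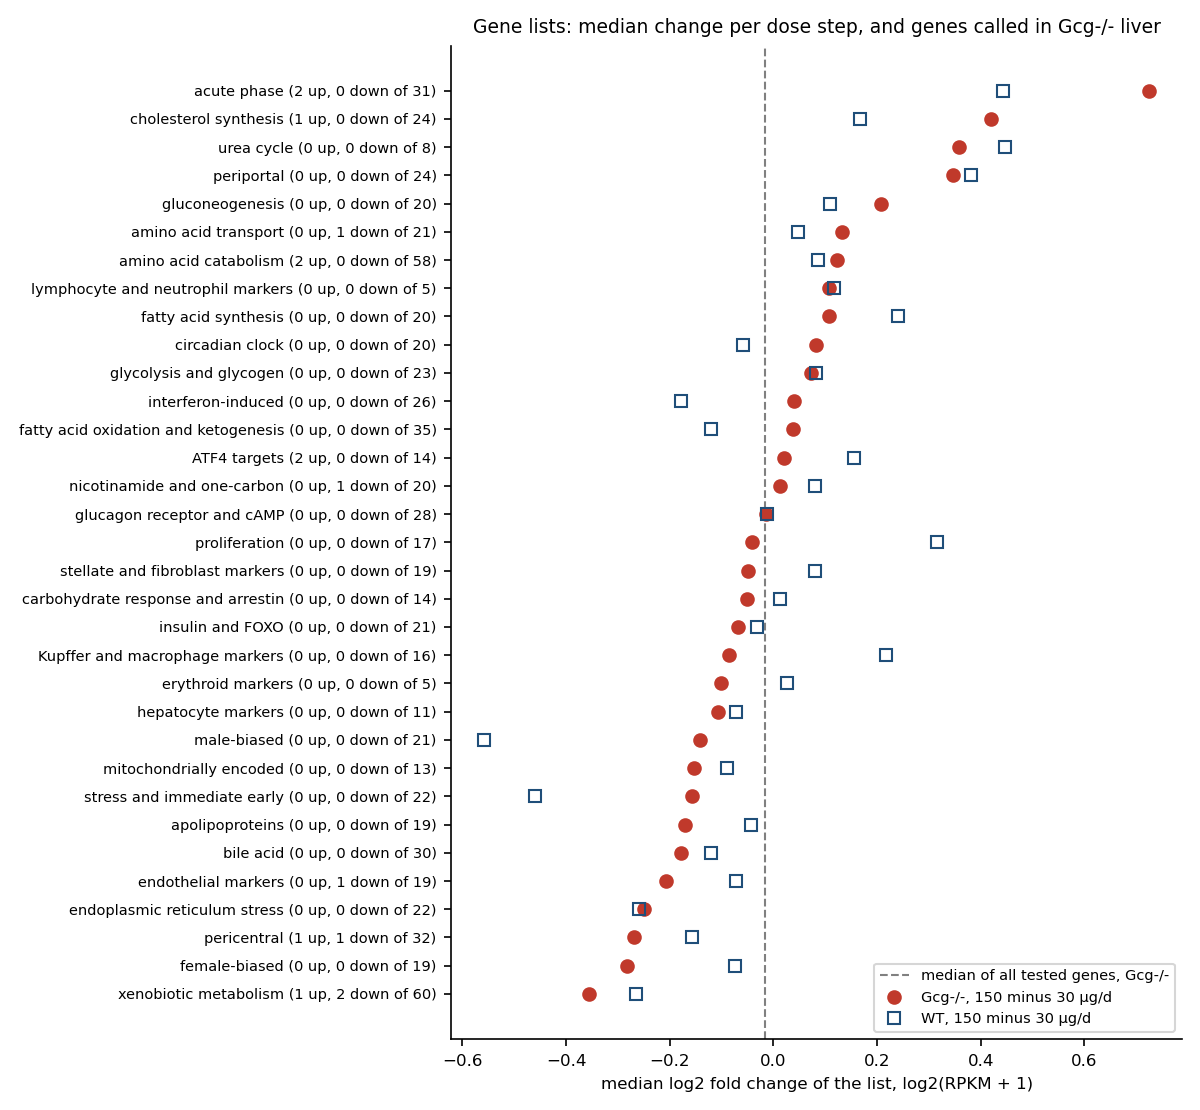
Median log2 fold change of each gene list with at least 5 tested members for 150 minus 30 µg/d in Gcg-/- liver (filled circles) and WT liver (open squares), with the number called in Gcg-/- liver beside each name and the median of all tested genes as a dashed line. Acute phase genes have the highest median, 0.72, and xenobiotic genes the lowest, -0.36, in Gcg-/- liver.

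Among called genes outside the metabolic lists, Rbbp4, a histone chaperone of chromatin complexes (chr4:129307100-129335370), was lower. It had 44.1, 25.1, 23.3 and 21.7 RPKM at 150 µg/d, against 71.1, 73.9, 80.6 and 72.0 RPKM at 30 µg/d, so that the highest high-dose library was well below the lowest low-dose one (-1.41 ± 0.25, limma adjusted p = 0.0172). Mief2, which recruits the mitochondrial fission machinery, had 6.50, 5.02, 4.88 and 4.70 RPKM at 150 µg/d, against 11.2, 8.10, 7.66 and 9.35 RPKM at 30 µg/d (-0.68 ± 0.12, limma adjusted p = 0.0119). Nox4, an oxidase that makes hydrogen peroxide, fell by 0.79 ± 0.16, Fzd8, a Wnt receptor, by 0.95 ± 0.19, and Tuft1, first known from tooth enamel, by 1.0 ± 0.20 (limma adjusted p = 0.0284, 0.0284 and 0.0278). Rbbp4 passed in 4 and Mief2 in 5 of the 8 fits that left out 1 library, and each of the other three in 2.

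The promoters of Rbbp4 and Mief2 are shown for the E-box CACGTG, a site read by basic helix-loop-helix factors, in capitals. They are the 250 bases before the RefSeq start on the gene's strand in GRCm38.p6: chr4:129335371-129335620 (- strand) and chr11:60728148-60728397 (+ strand).
Rbbp4: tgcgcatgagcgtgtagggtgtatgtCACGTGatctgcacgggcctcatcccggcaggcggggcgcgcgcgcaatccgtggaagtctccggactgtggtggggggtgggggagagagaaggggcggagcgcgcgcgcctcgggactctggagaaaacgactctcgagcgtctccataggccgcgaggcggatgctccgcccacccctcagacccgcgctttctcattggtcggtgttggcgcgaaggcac
Mief2: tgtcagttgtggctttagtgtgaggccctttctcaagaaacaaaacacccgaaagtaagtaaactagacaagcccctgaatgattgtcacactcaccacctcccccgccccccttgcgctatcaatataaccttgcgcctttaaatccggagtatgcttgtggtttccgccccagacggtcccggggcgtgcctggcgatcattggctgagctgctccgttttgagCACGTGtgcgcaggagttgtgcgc
CACGTG stood in 6 of the 21 promoters of called lower genes (28.6%), in 10.7% of the 28 of called higher genes and in 8.69% of the 9236 of tested genes. No test was made of these shares.

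Endothelial genes gave a single call within their marker list. Tie1, an endothelial receptor tyrosine kinase, had 3.07, 3.51, 2.72 and 2.66 RPKM at 150 µg/d, against 5.01, 4.71, 4.16 and 5.23 RPKM at 30 µg/d (-0.54 ± 0.11, limma adjusted p = 0.0255), and was the 1 call among 19 tested endothelial markers. Of these 19, 8 were lower and none higher at an unadjusted p under 0.05, against 6.82% and 6.06% of all tested genes. Their median was -0.21. Nos3, the endothelial nitric oxide synthase, which was named after its values were seen, had 0.851, 0.946, 0.705 and 0.712 RPKM at 150 µg/d, against 1.38, 1.51, 1.21 and 1.26 RPKM at 30 µg/d (-0.38 ± 0.07, limma adjusted p = 0.0227). Sdpr, a protein of caveolae, had 3.21, 3.52, 3.25 and 2.55 RPKM at 150 µg/d, against 5.46, 5.61, 5.29 and 6.07 RPKM at 30 µg/d (-0.68 ± 0.11, limma adjusted p = 0.00772). The 20 endothelial markers summed to 199 to 223 RPKM at 150 µg/d, against 201 to 263 RPKM at 30 µg/d, where library 13 was the lowest, and none was at 0. Without library 13, 4 of them were called lower, and none without library 11, 12, 14, 21 or 22, so that Tie1, like Nos3, passed in 3 of the 8 fits that left out 1 library. In bulk liver, fewer cells of a type and less RNA per cell cannot be told apart.

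Further called rises had no overlap between the groups. Flot1, a scaffold protein of membrane rafts (chr17:35823320-35832789), had the smallest p of all genes, with 14.1, 13.3, 15.3 and 14.5 RPKM at 150 µg/d, against 6.81, 7.86, 8.21 and 8.24 RPKM at 30 µg/d (0.80 ± 0.09, limma adjusted p = 0.000394). Mmd2, a membrane protein of the progestin and adiponectin receptor family, had 1.33, 3.16, 2.02 and 8.47 RPKM at 150 µg/d, against 0.0827, 0, 0.168 and 0.249 RPKM at 30 µg/d (1.86 ± 0.29, limma adjusted p = 0.00772). Gnat1, a G protein alpha subunit known from rod photoreceptors, had 4.32, 6.09, 7.99 and 9.11 RPKM at 150 µg/d, against 0.724, 1.30, 2.71 and 1.55 RPKM at 30 µg/d (1.63 ± 0.27, limma adjusted p = 0.00772). Dnajc12, a co-chaperone of aromatic amino acid hydroxylases, had 24.5, 9.999, 19.6 and 25 RPKM at 150 µg/d, against 5.01, 4.57, 7.13 and 4.77 RPKM at 30 µg/d (1.64 ± 0.37, limma adjusted p = 0.0464). Gnat1 passed in 7 and Dnajc12 in 2 of the 8 fits that left out 1 library.

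The uninfused Gcg-/- livers put the step in a dose series. Against no infusion, 315 genes (2.72%) passed at 150 µg/d, 152 higher (1.31%) and 163 lower (1.41%). At 30 µg/d, 10 genes (0.0863%) passed, 2 higher (0.0173%) and 8 lower (0.069%). These contrasts share libraries with the 150 against 30 µg/d comparison, so their values are only set side by side. Oat had 52.1, 71.9 and 80.6 RPKM without infusion, a group mean of 164 RPKM at 30 µg/d and 708 RPKM at 150 µg/d, and Nnmt ran from 1.52 to 32.8 RPKM without infusion, from 49.0 to 77.0 RPKM at 30 µg/d and from 141 to 355 RPKM at 150 µg/d. Oat did not pass between no infusion and 30 µg/d (limma adjusted p = 0.271). Nnmt did not pass between 30 and 150 µg/d (limma adjusted p = 0.065). Txnip, the arrestin that limits glucose uptake, had 164, 165 and 93.9 RPKM without infusion, 18.1 to 55.7 RPKM at 30 µg/d and 13.1 to 30.5 RPKM at 150 µg/d. It was called lower at 30 µg/d than without infusion (limma adjusted p = 0.0199) and did not pass between the doses (limma adjusted p = 0.708). Mmd2 was 0 to 0.159 RPKM without infusion, close to its 30 µg/d level. Library 4, uninfused, stood apart in male-biased genes, with a mean log2 level of 4.08 against 7.54 and 8.35 in libraries 5 and 6. Without it, 61 genes passed at 150 µg/d and 1 at 30 µg/d. At 150 µg/d the count was 132, 585, 194, 115 and 74 without library 5, 19, 20, 21 or 22 in that order, and at 30 µg/d it was 6, 33 and 5 without library 5, 6 or 12.

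Some called genes had their highest or lowest group mean at 30 µg/d. Atxn1, a transcriptional corepressor, had 1.57, 2.36 and 2.37 RPKM without infusion, 5.33, 5.62, 5.04 and 7.07 RPKM at 30 µg/d and 2.59, 3.96, 2.68 and 2.61 RPKM at 150 µg/d. It was called higher at 30 µg/d than without infusion (log2 change 1.13, limma adjusted p = 0.00616) and lower at 150 than at 30 µg/d (-0.78 ± 0.15, limma adjusted p = 0.0238; passed in 3 of the 8 fits that left out 1 library). Ces2b was 0.128 to 1.68 RPKM without infusion and 1.96 to 9.21 RPKM at 30 µg/d, and Flot1 was 10.4 to 10.6 RPKM without infusion and 6.81 to 8.24 RPKM at 30 µg/d. Neither Ces2b nor Flot1 passed between 30 µg/d and no infusion (limma adjusted p = 0.123 and 0.141). For Atxn1 and Ces2b the 150 µg/d mean lay nearer to the uninfused mean than to the 30 µg/d mean. Flot1 averaged 7.78 RPKM at 30 µg/d, 10.5 RPKM without infusion and 14.3 RPKM at 150 µg/d. It was called higher at 150 µg/d than without infusion (log2 change 0.40, limma adjusted p = 0.03325).

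**Figure D4:**
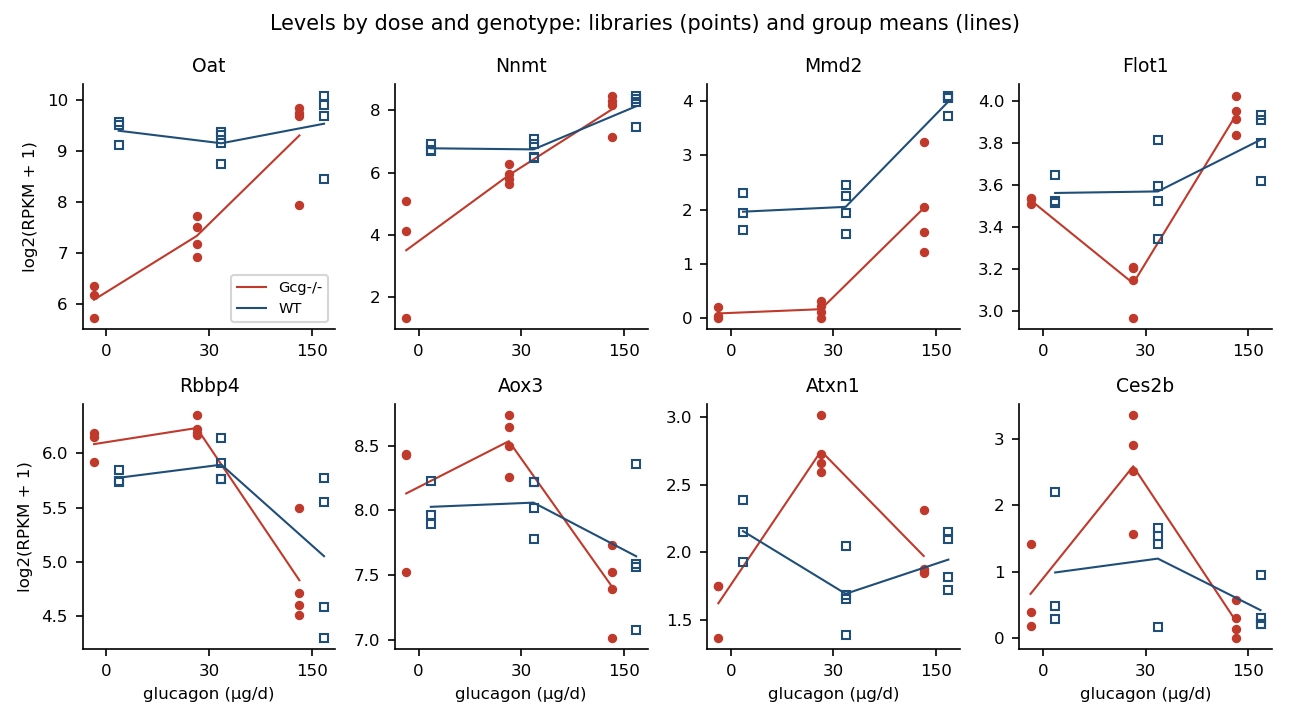
Levels of 8 genes as log2(RPKM + 1) at 0, 30 and 150 µg/d in Gcg-/- liver (filled circles) and WT liver (open squares), with lines through the group means. The group means of Oat and Nnmt climb over the 3 doses in Gcg-/- liver, whereas those of Atxn1 and Ces2b are highest and that of Flot1 lowest at 30 µg/d.

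The same dose step was measured in WT liver, whose libraries are in neither Gcg-/- group but enter the shared estimate of the spread. There 1 of 11590 genes passed (0.00863%), and 941 (8.12%) had an unadjusted p under 0.05, against 1492 (12.9%) in Gcg-/- liver. The gene was Mmd2, which had 15.9, 12.3, 15.6 and 16.2 RPKM at 150 µg/d, against 4.52, 1.92, 3.79 and 2.84 RPKM at 30 µg/d. Of the 35 genes called higher in Gcg-/- liver, 33 also had a positive step in WT liver, where 46.3% of all tested genes did, and of the 28 called lower 26 had a negative one. Mmd2 no longer passed in WT liver when library 8, 10, 15, 16, 17 or 18 of the WT groups was left out, or uninfused Gcg-/- library 5, and 7 and 8 genes passed without library 13 or 19. The median step of the 35 was 0.80 in Gcg-/- liver and 0.38 in WT liver, and that of the 28 was -0.60 in Gcg-/- liver and -0.21 in WT liver. The 63 were chosen on their Gcg-/- step, so a smaller WT step among them is no test of a difference.

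The difference between the genotypes' steps was tested directly, and no gene passed (0 of 11590; smallest limma adjusted p = 0.635), while 586 genes (5.06%) had an unadjusted p under 0.05. No statement that a change is particular to Gcg-/- liver therefore holds under this test. Flot1 and Atxn1 had among the smallest unadjusted p-values of the called genes: the step was 0.80 in Gcg-/- liver and 0.25 in WT liver for Flot1 (limma unadjusted p = 0.000352), and -0.78 and 0.25 for Atxn1 (limma unadjusted p = 0.000122). Ebp gave nearly the same step in both, 0.67 in Gcg-/- liver and 0.63 in WT liver. Ppp1r3b, which targets a phosphatase to glycogen, differed by -1.07 between the doses in Gcg-/- liver and by 0.92 in WT liver (limma unadjusted p = 0.000847). Its Gcg-/- groups overlapped, and the change there did not pass (limma adjusted p = 0.1845).

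**Figure D5:**
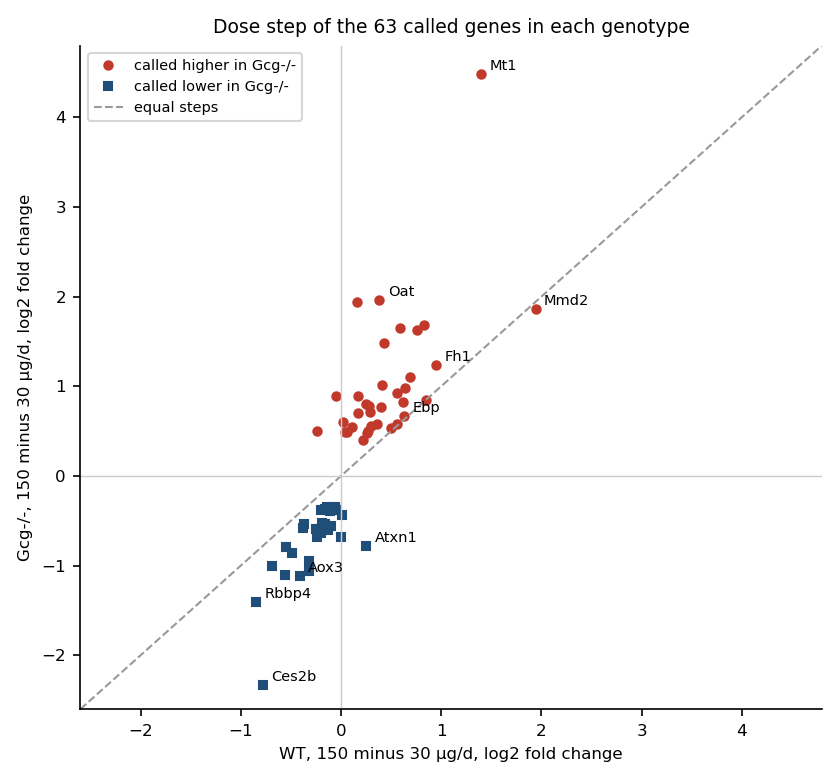
Log2 fold change, 150 minus 30 µg/d, of the 63 genes called in Gcg-/- liver, in WT liver (horizontal axis) and in Gcg-/- liver (vertical axis); circles are called higher, squares called lower, and the dashed line marks equal steps. Mt1 lies at 4.49 and 1.4, Mmd2 and Ebp lie near the line, and Atxn1 has opposite signs.

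The remaining lists gave no call in either direction: fatty acid synthesis, fatty acid oxidation and ketogenesis, carbohydrate response, insulin and FOXO genes, immediate early genes, clock genes, interferon-induced genes, proliferation genes, endoplasmic reticulum stress genes, female-biased, sex chromosome and mitochondrially encoded genes, and markers of hepatocytes, stellate cells, cholangiocytes, lymphocytes, neutrophils, red cells, pancreas and adipose tissue. Of 28 tested genes of the glucagon receptor and cyclic AMP pathway none passed, with a median change of -0.01. Endoplasmic reticulum stress genes had a median of -0.25. At an unadjusted p under 0.05, 5 of the 22 were lower and none higher, against 6.82% and 6.06% of all tested genes. The 5 included a gene that the male-biased list also holds. Male-biased genes had none of 21 called, and their mean log2 level ranged from 7.28 to 7.93 at 150 µg/d, against 5.37 to 8.66 at 30 µg/d.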

How the data were processed

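Poly(A) RNA of liver was sequenced after strand-specific library preparation, per the labels' protocols, with CASAVA 1.8.2, FastQC and GRCm38 listed in the submitters' processing notes. What aligned and counted the reads is not given in the sources used here, nor is the annotation. The authors deposited RPKM for 24475 genes, 1 column per library, with no pooling. From these, limma 3.58.1 (R 4.3.3) was fitted to log2(RPKM + 1) over all 6 groups with a mean-variance trend, for 11590 genes with a mean of at least 0.5 RPKM over the 22 libraries; p-values were adjusted over all of them by Benjamini-Hochberg and called under 0.05. The method was tested on simulated data. Lists are described by counts and medians, with no test. Depth came from the steps of low values in 3984 single-transcript genes, as the read total at which these values came nearest to whole reads. In the 8 libraries, 62.8 to 68.2% of the low values used gave whole reads within 0.1 read, too few for a count test. By chance 20% would for a total not chosen on these values, so the share is no test of the depth. Promoter sequences came from RefSeq; the first listed window of each gene was used.

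The genes named are the 15 largest called rises and falls with a mean of at least 1 RPKM, 14 landmark genes, the 4 smallest p-values of each list, and the 4 smallest in each direction of the genotype difference; others are said to be chosen after their values were seen. Cyp2b9, Saa1, and the motif TGATGNAA were among the latter. The comparison and the lists were chosen with earlier results of these data known. Alternatives were other pseudocounts, filters and scalings, fits without the trend, with array weights or on the compared groups alone, and leaving out each library; those that left out the other 14 libraries were added after the data were seen. Locations are RefSeq GRCm38.p6, in which 24375 of the 24475 identifiers matched.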

Additional observations from a re-analysis of the deposited data

Results flagged for a closer look

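In groups of 4 libraries, 23 of the 180 tested groups of the genes named held 1 library whose gap to its nearest neighbour exceeded the 95% limit of Dixon's test; chance marks about 1 in 20 groups, and genes measured in the same library are not independent. Library 19 at 150 µg/d was low in Oat (245 RPKM; the others 822 to 910.4), Gls2 (70.0; 207 to 213), Sds (52.9; 235 to 269) and Lhpp (17; 49.2 to 55.0), and high in Cyp2c54 (149; 61.9 to 75.0), Gcgr (92.3; 73.7 to 76.3) and Rbbp4 (44.1; 21.7 to 25.1). Library 20 at 150 µg/d was high in Haao, a tryptophan pathway enzyme (304; 254 to 257), Pygl (172; 125 to 129.98) and Atxn1 (3.96; 2.59 to 2.68), and low in Csf1r (12.6; 17.8 to 18.7).

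Library 13 at 30 µg/d was high in Otc (360.3; 299.99 to 305), Cyp17a1 (5.13; 0.650 to 1.16), Dnajc12 (7.13; 4.57 to 5.01) and Cyp2b9 (42.9; 0 in the others), and low in Cyp27a1 (185; 316 to 330.5), Apoa1 (6203; 7616 to 7667), Tek (3.18; 3.81 to 3.91) and Ehd3 (17.4; 24.2 to 24.4). Library 12 at 30 µg/d was high in Mt2 (21.8; 9.88 to 10.6), Pck1 (1685; 794 to 885) and Lipc (94.7; 60.04 to 65.1). Library 11 at 30 µg/d was high in Txnip (55.7; 18.1 to 22.6). All values are RPKM.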

How the results depend on the processing

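For the 150 against 30 µg/d comparison in Gcg-/- liver, 65 to 79 genes passed under other pseudocounts, a minimum of 2 RPKM, other scalings or no trend, against 63. Without a filter 39 passed, with array weights 541, and with only the compared groups 0; leaving out 1 library gave 10 to 282. In WT liver the count of 1 became 0 with a pseudocount of 0.1 and 6 with 2, 5 without a filter, 2 at one sum, 3 with only the compared groups and 12 with array weights, and 0 to 8 without 1 library. The difference of the steps gave 0 under each setting tried. Against no infusion, the count of 315 at 150 µg/d became 1 with only the compared groups, 770 with array weights and 61 to 585 without 1 library, and the count of 10 at 30 µg/d became 1, 21 and 1 to 33. Fewer libraries leave fewer degrees of freedom, and what moved the counts was not tested. Signs turned only for genes that did not pass: Gcgr (-0.01) gave 0.0032 by median-of-ratios scaling, 0.035 at one sum and -0.087 to 0.020 without 1 library, Axin2 (-0.15) gave -0.34 to 0.050, positive without library 11, and Cyp2b9 (-1.29) gave -1.75 to 0.073, positive without library 13. Of the values of the 89 genes named and tested, 1293 kept direction and call, 230 lost the call and 64 gained it. No paired analysis was possible because each library has its own running number, and none is shared between groups.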
